A study of Arabidopsis thaliana with 2 samples.

Results

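Some regions of the Arabidopsis thaliana genome were called as bound by the clock protein CCA1 from an IonPGM library, were not called from an Illumina library, and lay in the interior of a gene. These regions were chosen by the positions of the peaks in both deposited lists. A peak of the IonPGM list on chromosomes 1 to 5 was taken when it overlapped no peak of the Illumina list by even 1 bp and when its midpoint lay within a protein-coding gene, more than 200 bp from both ends of that gene. The rule found 580 of the 2901 peaks in the IonPGM list, which is 20.4% of its 2848 peaks on the nuclear chromosomes. Among the 1361 nuclear IonPGM peaks without an Illumina partner, these 580 made up 42.6%, with an exact 95% interval of 39.97 to 45.3%. This interval covers counting error within 1 list only and not the spread between libraries. The overlap of the lists and the place in the gene were used by the rule and are not results. They are called unshared interior peaks below.

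Chromatin immunoprecipitation sequencing (ChIP-seq) recovers and reads the DNA to which a chosen protein is cross-linked. Both libraries came from whole seedlings of the Col-0 accession aged 14 days, in a cca1 lhy double mutant carrying CCA1 fused to a FLAG tag under the CCA1 promoter. The seedlings grew without further treatment on MS plates with 2% sucrose at 22 °C in 12 h of light and 12 h of darkness, were fixed 1 h after the lights came on, and were precipitated with an anti-FLAG antibody. There was 1 library per sequencer, an IonPGM and an Illumina GAII, each prepared with its own kit, and the labels do not say whether they share the same precipitated DNA. Without replicates, no difference between the libraries could be tested, and kit and sequencer cannot be told apart. Neither a control library nor the number of reads is given in the sources used here. A region without an Illumina peak is therefore a region that was not called, and its Illumina signal is unknown.

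CCA1 is a MYB-related transcription factor of the circadian clock. Its level peaks around dawn, and it represses evening-expressed genes by binding short elements that usually lie in promoters. Photosynthesis genes, whose RNA is abundant in the light, are among the genes long associated with it. An interior peak is defined here only by a midpoint more than 200 bp from both gene ends, and its distance from any promoter was not measured. Because the gene table used here lists neither strands nor exons, peaks are placed relative to the nearer gene end and not to the start, and no exon, intron or untranslated region is named.

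The peak caller's score is the authors' own value and its scale is not given. It is used here only as a percentile, from 0 for the lowest to 100 for the highest score of the list a peak belongs to. Unshared interior peaks ranked low. Their median percentile was 27.7, with quartiles of 11.2 and 56.5. The 306 interior IonPGM peaks that did overlap an Illumina peak had a median of 64.1, and the 781 unshared IonPGM peaks elsewhere had a median of 40.7. The 243 interior Illumina peaks without an IonPGM partner had a median of 25.9 in their own list. When the nuclear IonPGM peaks were split into 5 equal ranges of percentile, 228 of the 572 lowest were unshared and interior (39.9%), then 135 of 574 (23.5%), 96 of 568 (16.9%), 68 of 568 (12.0%) and 53 of 566 (9.36%). The share fell at each step, and 25 of the 580 nevertheless ranked above percentile 90.

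**Figure D1:**
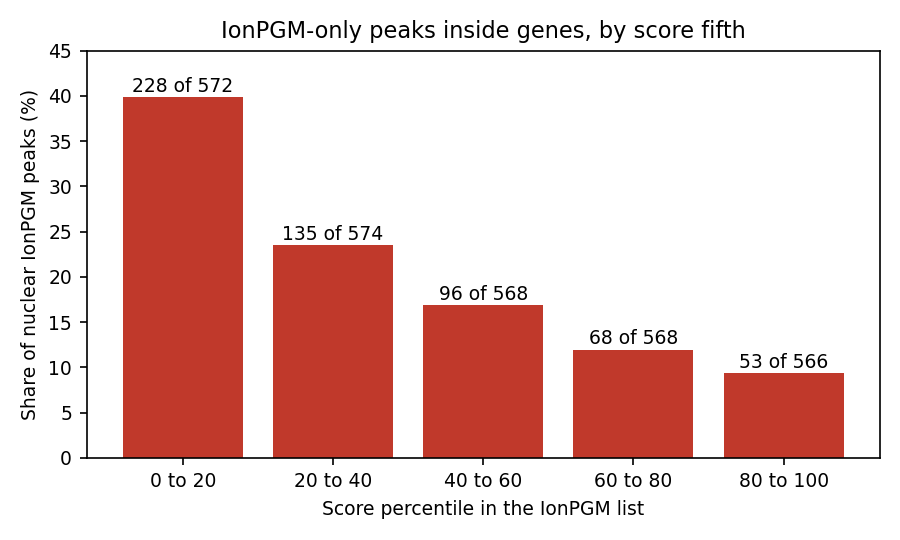
Share (percent) of the nuclear IonPGM peaks in each of 5 ranges of score percentile that had no Illumina partner and lay inside a gene, with the counts above the bars. These peaks make up 39.9% of the lowest range and 9.36% of the highest.

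These peaks were wider than the other unshared IonPGM peaks. Their median width was 271.5 bp, from 184 to 1646 bp, against 219 bp for the unshared IonPGM peaks elsewhere. At least 500 bp were covered by 97 of the 580 (16.7%), but by 11 of the 781 unshared IonPGM peaks elsewhere (1.41%). The shared interior IonPGM peaks were wider still, with a median of 327 bp and 73 of 306 at 500 bp or more (23.9%). Among the shared IonPGM peaks outside gene interiors, 48 of 1181 reached that width (4.06%). Among the unshared interior Illumina peaks, 3 of 243 did (1.23%), and among the shared interior ones of that list 33 did (11.5%). Wide peaks were thus more frequent inside genes than elsewhere, in both the shared and the unshared IonPGM peaks. At the other end, 39 of the 580 had the narrowest width in the list, 184 bp.

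Wider peaks also ranked higher. The 252 unshared interior peaks under 250 bp had a median percentile of 22.7, the 231 of 250 to under 500 bp a median of 25.5, the 67 of 500 to under 800 bp a median of 43.3, and the 30 of 800 bp or more a median of 67.2. Spearman's rho between width and percentile was 0.24 over these 580 peaks and 0.54 over the 306 shared interior peaks. All of these peaks share 1 library and 1 peak caller, so the correlations only describe that list.

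**Figure D2:**
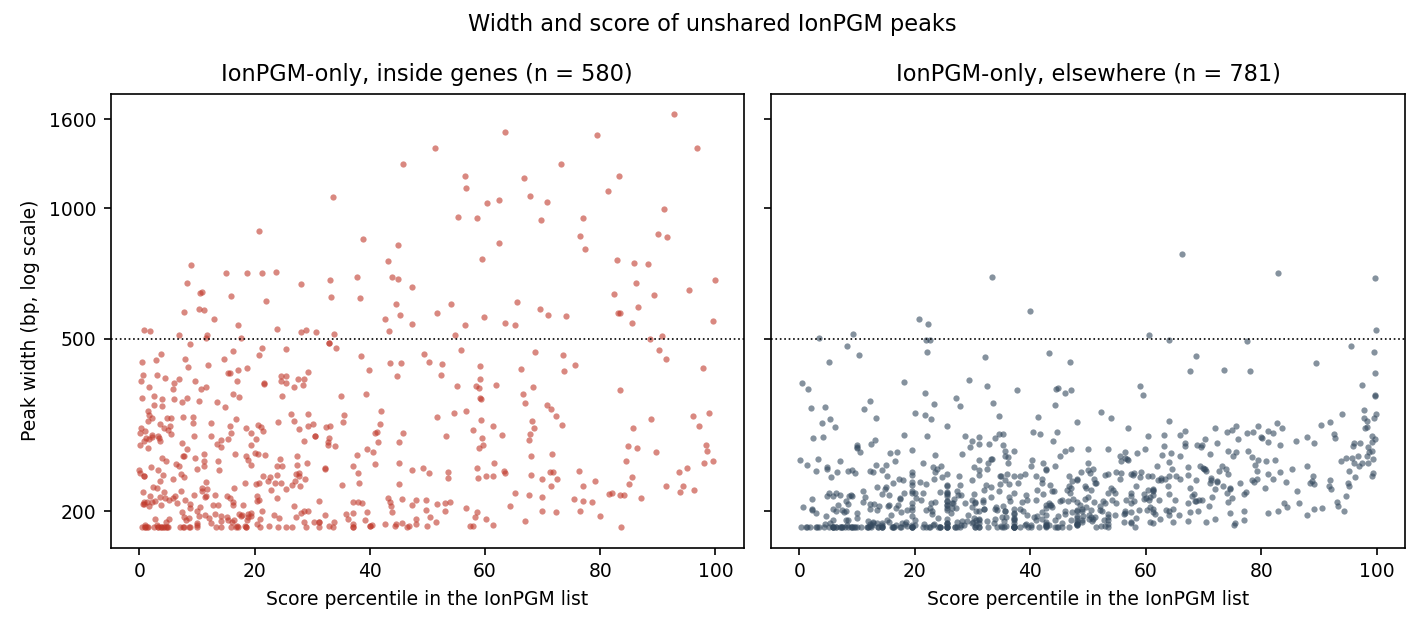
Width in bp (log axis) against score percentile in the IonPGM list, 1 point per peak, for the 580 unshared peaks inside genes (left) and the 781 elsewhere (right), with a dotted line at 500 bp. Above the line lie 97 peaks on the left and 11 on the right, counting those on it.

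The 580 peaks lay in 541 of 27432 nuclear protein-coding genes, or 1.97% of them. By the same rule 302 genes (1.1%) held a shared IonPGM peak and 519 genes (1.89%) an Illumina peak. The genes were of ordinary length, with a median of 2147 bp against 2078 bp over all genes. Of the 580 peaks, 571 lay in a single gene and 9 in a pair of overlapping genes. The midpoints of those 571 were a median of 583 bp from the nearer gene end, at 29.8% of the gene's length. Within 10% of the gene's length from the nearer end lay 47 midpoints. Successive steps of 10% towards the middle held 102, 139, 156 and 127. The rule left out midpoints within 200 bp of a gene end, which lowers the first steps. With a margin of 0 bp the median position was 22.6%. The peak was wholly inside the gene in 574 cases and covered a median of 13.3% of it. In 16 cases it covered at least 50% of the gene, and 93 midpoints were over 1000 bp from both ends.

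The wide form at its extreme is shown by the 5 widest peaks and by a peak in LHCB5. The widest of all, at 1646 bp, lay in HSC70-1, which encodes a cytosolic Hsp70 chaperone, at chromosome 5, 554047 to 555692 (TAIR10), and ranked at percentile 92.8. In AMT1;2, an ammonium transporter, a peak of 1497 bp covered 69.1% of the gene at percentile 63.5 (chromosome 1, 24060898 to 24062394). PAL2, a phenylalanine ammonia-lyase at the entry to phenylpropanoid synthesis, held one of 1472 bp at percentile 79.4 (chromosome 3, 19744480 to 19745951). The PAL2 peak covered 47.5% of its gene. CAT2, the main leaf catalase, which removes the hydrogen peroxide made in photorespiration, held one of 1378 bp at percentile 96.8 (chromosome 4, 16701427 to 16702804). The nearest Illumina peak was 46004 bp away, and a second IonPGM peak of 223 bp in CAT2 ranked at 7.22. SZF1, a CCCH zinc-finger gene of the salt-stress response, held one of 1373 bp at percentile 51.3. LHCB5, which encodes the minor antenna protein CP26, held one of 1187 bp that ran past the gene's end, with the nearest Illumina peak 55898 bp away.

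**Figure D3:**
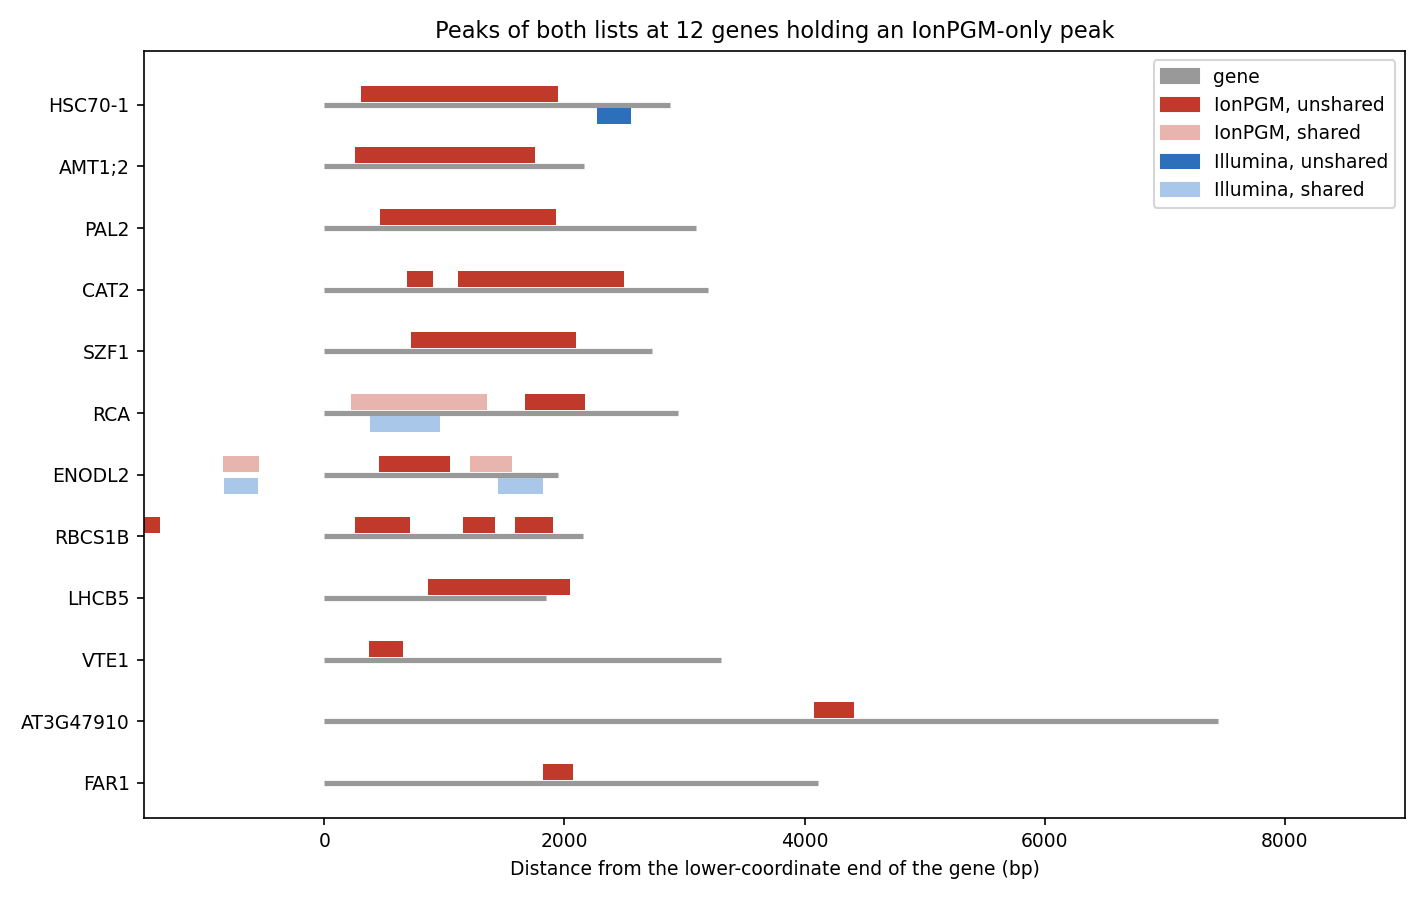
Peaks of both lists at 12 genes, as distance in bp from the lower-coordinate end of each gene (grey line), with IonPGM peaks above the line and Illumina peaks below it, dark where they have no partner in the other list and pale where they do. HSC70-1, AMT1;2, PAL2, CAT2, SZF1 and LHCB5 hold an unshared IonPGM peak of over 1000 bp, while VTE1, AT3G47910 and FAR1 hold 1 narrow peak.

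To describe what the genes do, they were set against 19 gene lists of pathways and families, 1190 genes in all or 4.34% of the genes. Of the 541 genes holding an unshared interior peak, 108 were in a list (19.96%). The figure was 19.5% for genes holding a shared interior IonPGM peak (59 of 302), 13.7% for genes with any interior Illumina peak (71 of 519), and 7.88% for genes with an unshared interior Illumina peak (19 of 241). It was higher for wider peaks. Of 248 genes with a peak under 250 bp 28 were listed (11.3%), of 219 with one of 250 to under 500 bp 45 (20.5%), of 68 with one of 500 to under 800 bp 30 (44.1%), and of 30 with one of 800 bp or more 13 (43.3%). An unshared interior peak of at least 500 bp was held by 98 genes, 0.357% of all. A peak in overlapping genes counts for both of them in these numbers. No list was tested. The lists were chosen with earlier results of these data known, so a share above that of all genes is description only. Genes were matched by symbol and synonym, and family members without a matching one are not counted. Each is given by its count beside the 1.97% of all genes, and the exact 95% intervals cover counting error only.

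**Figure D4:**
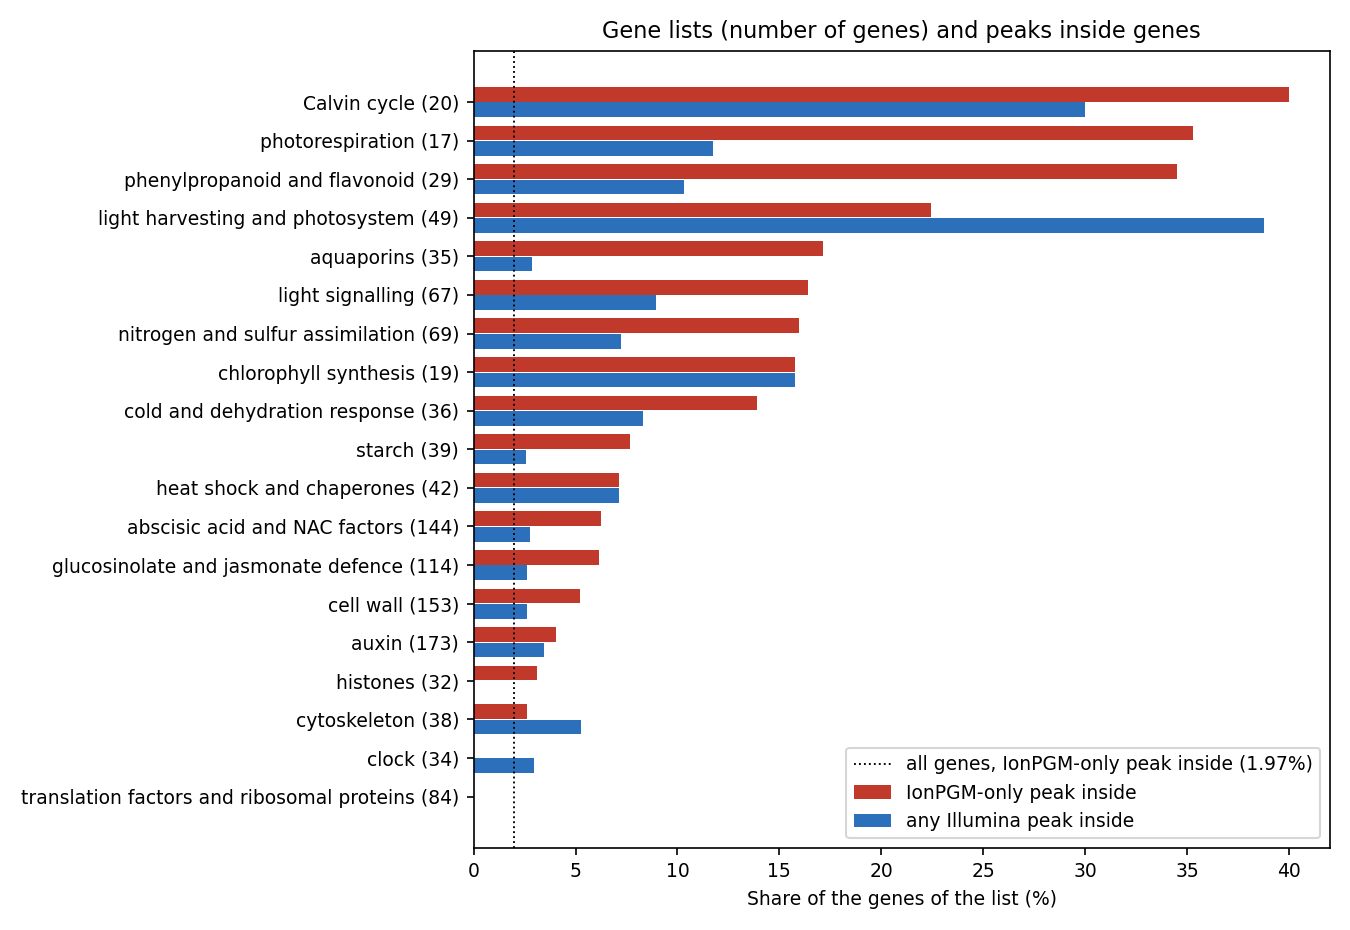
Percent of the genes in each of 19 lists that hold an unshared interior IonPGM peak, beside the percent holding an interior Illumina peak, with the level over all genes (1.97%) marked. The Calvin cycle, photorespiration, and phenylpropanoid and flavonoid lists stand highest for IonPGM, and the clock and translation lists are at 0.

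Carbon fixation had the highest share. Of 20 Calvin cycle genes 8 held an unshared interior peak (40%, interval 19.1 to 63.9%), and 6 held an interior Illumina peak. RCA, which encodes Rubisco activase, held a peak of 500 bp at percentile 88.7. Elsewhere in the same gene lay a shared IonPGM peak that ranked higher, at 97.7, and overlapped an Illumina peak at percentile 47.7 of its list, 700 bp from the unshared peak. The chloroplast aldolases FBA1 and FBA2 held peaks of 742 bp at 88.3 and 1093 bp at 81.4, whereas the third chloroplast aldolase, listed as PDE345, held none. GAPB, a subunit of the photosynthetic glyceraldehyde-3-phosphate dehydrogenase, held a pair at percentiles 35.3 and 32.9, and PRK, phosphoribulokinase, a pair at 29.3 and 23.7. The Rubisco small subunit genes RBCS1B, RBCS2B and RBCS3B, which are neighbours on chromosome 5, held 3, 2 and 1 peaks, the highest at percentile 72.3 in RBCS3B. RBCS1A on another chromosome held a shared peak instead. The RBCS genes are near-identical copies, and how reads matching several places were handled is not given in the sources used here, so the placement among them is uncertain.

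Photorespiration, which recycles the product of Rubisco's reaction with oxygen, had 6 of 17 genes with such a peak (35.3%, interval 14.2 to 61.7%) and 2 with an Illumina peak inside. After CAT2, the highest was AGT, the peroxisomal aminotransferase that acts on serine and glyoxylate, with 607 bp at percentile 65.6. An Illumina peak lay 55 bp from it. The others ranked low. GLDP1, the P protein of glycine decarboxylase, was at 18.6, and GOX1, a glycolate oxidase, had 2 peaks at 16.3 and 12.5. The other catalase genes, CAT1 and CAT3, held no unshared interior peak, though peaks of both lists overlapped CAT3.

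The light reactions followed another pattern, with the shared peaks in the majority. Of 49 light-harvesting and photosystem genes 11 held an unshared interior IonPGM peak (22.4%, interval 11.8 to 36.6%), 21 a shared one and 19 an interior Illumina peak. Of the 11, antenna genes were 7. CAB2, which encodes an Lhcb1 protein of the main antenna, held a peak of 671 bp at percentile 86.1, and its neighbour CAB3 one of 404 bp at 28.5. These 2 are near-identical, with the same uncertainty as the RBCS genes. LHCB4.2, for the antenna protein CP29, held a peak of 543 bp at 85.5 with an Illumina peak only 44 bp away. LHCA3, of the photosystem I antenna, held one of 574 bp at 83.5. Genes of the oxygen-evolving complex were present too, PSBP-1 at 59.1 and the close copies PSBO1 and PSBO2 at 9.01 and 3.33. Of 19 chlorophyll synthesis genes 3 held a peak (15.8%, interval 3.38 to 39.6%), all low in rank, and 3 held an interior Illumina peak. CH1, the oxygenase that makes chlorophyll b, was at 24.0, GUN5, a magnesium chelatase subunit, at 12.4 and CRD1 at 8.22.

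The phenylpropanoid pathway makes lignin precursors and flavonoids from phenylalanine. Of its 29 listed genes 10 held an unshared interior peak (34.5%, interval 17.9 to 54.3%), against 3 with an interior Illumina peak, and in 7 the peak was at least 500 bp wide. The peaks in PAL, C4H and 4CL genes lay at successive steps at the start of the pathway. Later on, the listed genes CYP98A3, CCR1, FAH1, OMT1, ATCAD4 and CAD5 towards lignin held no unshared interior peak. Nor did TT5, F3H, FLS1, DFR and LDOX towards flavonoids. PAL1 and PAL2 at the first step held peaks of 1263 and 1472 bp, C4H at the second step one of 460 bp at percentile 49.3, and 4CL1 and 4CL2 at the third step peaks of 872 bp at 90.1 and 200 bp at 29.3. Their relatives PAL3, PAL4, 4CL3 and 4CL5 held none. In the branch to lignin, CCoAOMT1, a methyltransferase, held 1067 bp at 67.8, and HCT 519 bp at 28.1. In the flavonoid branch, TT4, which is chalcone synthase, held 638 bp at 10.6, TT7, the flavonoid 3'-hydroxylase, 556 bp at 12.9, and UGT78D2, a glucosyltransferase, 364 bp at 59.3. Among arogenate dehydratases, which make the phenylalanine that enters the pathway, ADT4 held a peak of 1266 bp at percentile 73.2 and ADT5 a pair of which the higher ranked at 95.4, while ADT1, ADT2 and ADT6 held none. The comparisons within gene families here and below were chosen after their values were seen.

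Nitrogen and sulfur assimilation had 11 of 69 genes with a peak (15.9%, interval 8.24 to 26.7%) and 5 with an interior Illumina peak. NRT1.1, a nitrate transporter and sensor, ranked highest with 292 bp at 67.6, followed by AMT1;2. None of AMT1;1, AMT1;3, AMT1;4 and AMT1;5 held one. The cycle that regenerates methionine was represented at several steps. ATMS1, a methionine synthase, held 386 bp at 59.0, the S-adenosylmethionine synthetase genes MAT3 and MTO3 held 692 bp at 37.8 and 850 bp at 38.8, and HOG1, S-adenosylhomocysteine hydrolase, held a pair of 694 and 757 bp at 43.9 and 43.2. The other synthetase genes, SAM1 and SAM-2, held none. In sulfate reduction, APS1, an ATP sulfurylase, was at 20.03 and APR2, the following reductase, held 709 bp at 15.03.

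Light signalling had 11 of 67 genes (16.4%, interval 8.49 to 27.5%), against 6 with an interior Illumina peak. FAR1, a transcription factor of phytochrome A signalling derived from a transposase, held a narrow peak of 252 bp at percentile 95.1. BBX32, a B-box protein, held 629 bp at 89.3, and RPT2, a partner of the phototropins, 1186 bp at 83.3. The phototropins themselves, the blue light receptors of phototropism, were both present, with PHOT2 at 59.8 and PHOT1 at 22.4. The former is among the 9 peaks in overlapping genes, as it also lies inside AT5G58150. Of the CONSTANS-like genes, COL1, COL2 and COL3 held peaks at 21.6, 1.78 and 10.4, while CO, COL4, COL5 and COL9 held no unshared interior peak. Peaks of both lists overlapped COL9, however, and an Illumina peak overlapped COL4.

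Aquaporins, the water channels of plasma membrane and vacuole, had 6 of 35 genes (17.1%, interval 6.56 to 33.6%) and 1 with an interior Illumina peak. TIP2, a vacuolar channel, held a pair at 73.5 and 56.7. The plasma membrane channels PIP2E and PIP2A were at 63.0 and 59.5, the latter with 764 bp. Cold and dehydration response had 5 of 36 genes (13.9%, interval 4.67 to 29.5%) and 3 with an interior Illumina peak. It was led by ERD15 at 44.6, the dehydrin gene ERD10 at 41.3, and RHL41, a zinc-finger factor also known as ZAT12, at 24.6. An Illumina peak lay 225 bp from the ERD15 peak, at percentile 88.4 of its list. Another lay 54 bp from the RHL41 peak, at percentile 81.0. Starch metabolism had 3 of 39 (7.69%, interval 1.62 to 20.9%), all beta-amylases, with BMY3 at 82.8, CT-BMY at 59.4 and BAM1 at 1.71. An interior Illumina peak lay in 1 listed starch gene.

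In 5 further lists the shares were smaller, and the lower bounds of their intervals ran from 1.498 to 2.897%. Interior Illumina peaks were held by 3 heat shock, 4 abscisic acid and NAC, 3 glucosinolate and jasmonate, 4 cell wall and 6 auxin genes. Heat shock and chaperone genes gave 3 of 42 (7.14%, interval 1.498 to 19.5%), namely HSC70-1 and the near-identical Hsp90 genes HSP81-3 and HSP81-2 at 11.9 and 1.53. Abscisic acid and NAC factor genes gave 9 of 144 (6.25%, interval 2.897 to 11.5%), led by ATAF1, a NAC factor, with 1173 bp at 66.7. NCED4 followed at 47.2 and PYL4, of the abscisic acid receptor family, at 33.0. NAC102, which the list did not include, held one of 245 bp at 37.9. Glucosinolate and jasmonate genes gave 7 of 114 (6.14%, interval 2.504 to 12.2%), led by TGG1, a myrosinase, at 86.4, then ESM1 at 69.7 and AOS, which makes the jasmonate precursor, at 31.2. Cell wall genes gave 8 of 153 (5.23%, interval 2.28 to 10.04%), led by TCH4, a xyloglucan endotransglucosylase, at 75.6 and the arabinogalactan protein genes AGP9 at 61.3 and AGP1 at 56.7. Auxin genes gave 7 of 173 (4.05%, interval 1.64 to 8.16%). Among them, ARF15 at 96.1, ARF14 at 89.6, ARF21 at 72.3 and ARF22 at 69.9, are auxin response factor genes of 1 family of close copies on chromosome 1, and their peaks, 199 to 331 bp wide, are uncertain in place. ARF12, ARF13, ARF20 and ARF23 of that family held none.

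Lists at or near the level of all genes were histones with 1 of 32, HON4 at 39.2, and cytoskeleton with 1 of 38, ACT2, an actin gene, at 3.69. An interior Illumina peak lay in 2 listed cytoskeleton genes and in no listed histone gene. None of the 34 listed clock genes held an unshared interior peak, and none of the 84 listed genes of translation factors and ribosomal proteins did. Genes of either kind without a matching symbol or synonym were not in these lists, so a peak in them was not counted. A limit of 3 genes allows shares of up to 8.82% and 3.57%, and the exact 95% intervals used for the other lists reach 10.3% and 4.30%. The clock and translation intervals both include the 1.97% of all genes. The intervals of the histone, cytoskeleton, starch, auxin, and heat shock and chaperone lists also include that level. As no list was tested, the intervals do not decide whether any list differs from all genes. A shared IonPGM peak lay inside 1 clock gene, and an Illumina peak inside 1. No listed translation gene held either kind.

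Most of the highest scores lay outside the listed pathways, as did most of the 541 genes, of which 108 were in a list (19.96%). Of the 10 highest-ranked unshared interior peaks, 3 lay in AT2G08986, at percentiles 99.9, 98.5 and 97.8. The highest, of 682 bp, was at chromosome 2, 3625802 to 3626483. AT3G27400 held one of 261 bp at 99.6 (chromosome 3, 10142020 to 10142280), AT2G16586 one of 550 bp at 99.6 (chromosome 2, 7190930 to 7191479), and AT3G47910 one of 338 bp at 98.9 (chromosome 3, 17678362 to 17678699). AT4G28085 at 98.1 and AT1G10610 at 97.2 held peaks of 259 and 315 bp. Only VTE1 and CAT2 among the 10 carried a gene symbol in the table, and VTE1 encodes tocopherol cyclase of vitamin E synthesis, with a peak of 284 bp at 98.4 (chromosome 4, 15805155 to 15805438). Of the 25 peaks above percentile 90, 13 were under 350 bp wide, so the top of the ranking held narrow peaks as well as the wide ones.

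Repeated peaks in a gene were uncommon. Of the 541 genes, 498 held 1 unshared interior peak, 39 held 2, 3 held 3, and AT2G08986 held 4, the lowest of them at percentile 83.7. The genes with 3 were RBCS1B, AT1G40104, at 93.8, 91.6 and 84.9, and AT3G08030, at 11.7, 9.58 and 8.27. AT2G08986 and AT1G40104 lie in gene-poor stretches, here 100 kb bins with at most 6 protein-coding genes, of which there are 121 among 1193 bins. Of the 580 peaks 8 lay in such bins, 7 of them in these 2 genes, and 6 of the 8 ranked above percentile 90. Unshared IonPGM peaks elsewhere lay in such bins in 63 of 781 cases. In 16 cases neighbouring genes each held a peak, among them CAB3 with CAB2, RBCS3B with RBCS2B with RBCS1B, and LHCA2 with BRH1. Chromosomes 1 to 5 held 160, 90, 120, 90 and 120 of the peaks. These were 21.4, 20.7, 20.8, 20.1 and 18.7% of the IonPGM peaks of each chromosome. Annotated transcripts of other kinds overlapped 26 of the 580 peaks, mostly lncRNA (22), and none overlapped 1 of the 625 tRNA genes. No share over all genes or peaks is given here for the neighbouring genes or these overlaps, so their counts are description only.

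The Illumina list was not empty around these genes. An Illumina peak overlapped some part of 87 of the 541 genes (16.1%), against 6.3% of all genes. Within 1000 bp of the gene or overlapping it there was one for 138 (25.5%), against 12.7% of all genes. For the other 403 genes (74.5%) there was none. From the peaks themselves, the nearest Illumina peak was a median of 8098.5 bp away, with quartiles of 1970 and 22252 bp, and the median was 11086 bp for unshared IonPGM peaks elsewhere. Within 1000 bp lay an Illumina peak for 98 of the 580 (16.9%) and for 87 of the 781 elsewhere (11.1%). Within 10000 bp there was none for 274 of the 580.

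The 5 highest-ranked peaks whose gene also holds an Illumina peak at another place were 2 in AT1G40104 and those in HSC70-1, RCA and ENODL2. In HSC70-1 the Illumina peak lay 323 bp from the IonPGM peak and ranked at percentile 22.1 of its list. In ENODL2, an early nodulin-like gene, the IonPGM peak of 593 bp was at 86.6 and the Illumina peak, 405 bp away, at 36.9. That Illumina peak overlapped another IonPGM peak of the gene, at percentile 11.2. RCA and ENODL2 thus held a place called from both libraries beside the unshared peak, whereas in HSC70-1 neither peak had a partner.

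**Figure D5:**
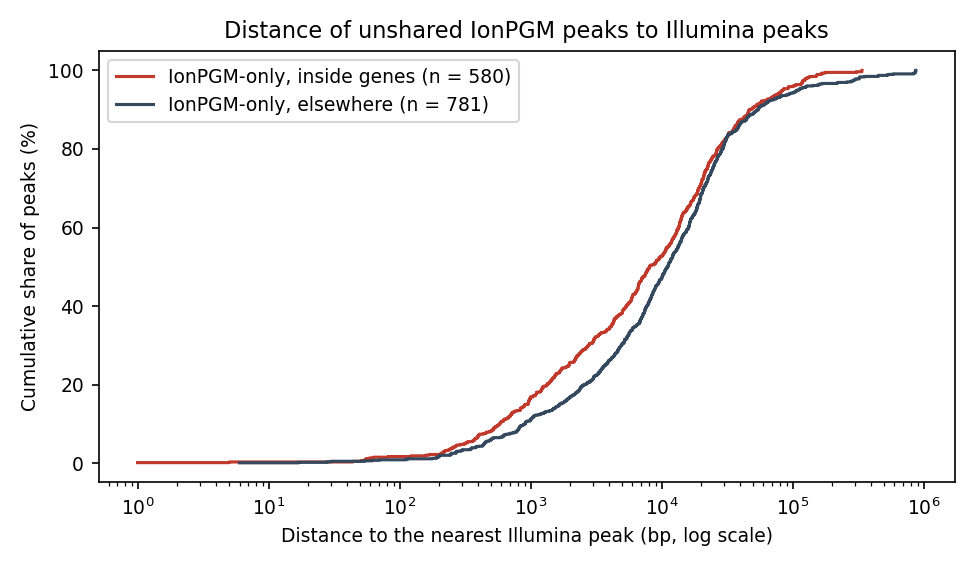
Distance in bp (log axis) from each unshared IonPGM peak to the nearest Illumina peak, as the cumulative share of peaks, for peaks inside genes and elsewhere. The medians are 8098.5 bp inside genes and 11086 bp elsewhere, and 16.9% and 11.1% lie within 1000 bp.

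Near the limits of the rule the ranges on both sides overlapped. The 5 unshared interior peaks nearest to an Illumina peak were 1 to 54 bp from it and ranked at percentiles 24.2 to 85.5, while the 5 interior IonPGM peaks with the smallest overlap shared 19 to 48 bp and ranked at 5.45 to 52.0. The 5 midpoints just inside the margin were 201 to 209 bp from a gene end, at percentiles 3.17 to 40.9, and the 5 just outside were 190 to 200 bp from it, at 1.34 to 25.5. A further 223 unshared IonPGM peaks had their midpoint in a gene but within 200 bp of an end.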

How the data were processed

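CCA1-FLAG ChIP-seq was read once on each of 2 sequencers. The submitters' processing notes name Bowtie 0.12.7, MACS2 without a version, SAMtools 0.1.18 and TAIR10. Each deposited list holds peak positions, called per sample, and 1 score per peak from the authors. Not given in the sources used here are the score's scale, the peak threshold and any control or filter. Depth is unknown, so no interval was set on a peak's signal.

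Starts were taken as 0-based and are printed 1-based. A peak was shared at an overlap of at least 1 bp. Genes came from the RefSeq table of TAIR10.1, none of whose coordinates is printed. Lists were matched by symbol and synonym, with namesakes left out. The 580 peaks and the lists were chosen with earlier results of these data known, so nothing was tested, and counts are set beside all genes. Shares have exact (Clopper-Pearson) 95% intervals. The text names genes of the 10 highest and 5 widest peaks, genes with 3 or more, up to 3 per list by score, and the 5 highest whose gene also holds an Illumina peak. Further genes were named after their values were seen. Sequence content, planned, was not examined because no genome was used here. The code was tested on simulated data. Python 3.11.15, NumPy 2.4.6, pandas 2.3.3, SciPy 1.17.1 and Matplotlib 3.10.9 were used.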

Additional observations from a re-analysis of the deposited data

How the results depend on the processing

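Of 92 values recomputed under other settings, 64 stayed within tolerance and 28 moved. A count was taken as moved when it differed by more than 1.5 times, and a median when it left the 95% order-statistic interval of the reported one, which was 24.2 to 31.2 for the percentile, 256 to 290 bp for the width and 28.6 to 31.6% for the position. With a margin of 0 bp from the gene ends there were 803 peaks in 763 genes, within the tolerance for counts, the median width was 247 bp and the median position 22.6% of the gene's length. With a margin of 500 bp there were 354 peaks in 334 genes, of median width 301.5 bp at 35.4% of the length, and the counts of genes with a peak were 4 for light harvesting, 2 for cold, 3 for aquaporins and 1 for auxin. With the IonPGM peaks above percentile 50 alone there were 168 peaks in 159 genes, with a median percentile of 69.9 and a median width of 328 bp. The genes with a peak then numbered 5 for light harvesting, 0 for chlorophyll, 5 for the Calvin cycle, 2 for photorespiration, 0 for cold, 4 for phenylpropanoids, 0 for histones, 0 for the cytoskeleton, 1 for chaperones, 3 for the cell wall, 3 for nitrogen and sulfur, 5 for light signalling, 1 for abscisic acid and NAC factors and 2 for glucosinolates and jasmonate. Each of these settings changes which peaks enter, and the 500 bp margin and the percentile limit leave fewer. No paired analysis was possible because there is 1 library per sequencer and no test was made, and no library could be left out for the same reason. Depth limits the reading of every unshared peak, since an uncalled Illumina region may still carry signal.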

Other observations

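Outside the lists, several genes of stress and hormone signalling held wide unshared interior IonPGM peaks. They were picked after their values were seen and were not tested. ACS6, an enzyme that makes the ethylene precursor, held a peak of 1043 bp at percentile 62.4, and ERF4, an ethylene response factor that represses transcription, one of 633 bp at 82.3. BES1, a transcription factor of brassinosteroid signalling, held one of 556 bp at 42.7. Among metabolic genes, VTC2, which acts in the synthesis of ascorbate, held one of 1035 bp at 70.8, and ADC2, an arginine decarboxylase of polyamine synthesis, one of 1112 bp at 56.6. The serine acetyltransferase genes SERAT2;1 and SERAT2;2, at the step before cysteine, held peaks of 565 bp at 74.0 and 510 bp at 54.8, with a second of 264 bp at 24.4 in SERAT2;2. UBQ14, a polyubiquitin gene, held one of 948 bp at 76.9, with its place uncertain because polyubiquitin genes are close copies.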
